A study of Mus musculus with 2 samples.

Results

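The genes described here are 10 transcription factors that endothelial cells (ECs) use to take up and keep their identity: *Erg*, *Fli1*, *Ets1*, *Sox17*, *Sox18*, *Sox7*, *Gata2*, *Tal1*, *Klf2* and *Klf4*. They were chosen by name, without use of their measured values, and are 10 of the 32285 genes of the count tables. All 10 were detected in the tumor endothelial cells (TECs) of both libraries, and all 10 had at least 100 UMIs there, the minimum used below for a ratio between libraries. A UMI is a molecular tag that marks 1 captured mRNA molecule.

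The data are 10x Genomics 3' single-cell RNA-seq of YUMMER1.7 tumors, a mouse melanoma line, from female mice of 8 to 10 weeks. The control library came from mice whose genotype the labels give as C57BL/6, which the study's methods describe as Cdh5CreERT2 mice with the ZsGreen reporter. The Dnmt1iECKO library came from Cdh5CreERT2;Dnmt1fl/fl;ZsGreenlsl/lsl mice, in which tamoxifen activates Cre under the *Cdh5* (VE-cadherin) promoter and removes *Dnmt1*, the maintenance DNA methyltransferase, from every EC of the body and not from tumor vessels alone. Tumors of 3 mice were pooled in each library, digested with collagenase II, dispase and DNase I at 37 °C, and sorted for live CD31+CD45- cells. The labels place the tumors under the skin, whereas the methods describe lung tumors after injection into the tail vein, and the cell types below are those of lung. The labels also give the cell type as melanoma cells, although ECs were sorted. Each condition is 1 library, so no test between conditions is possible: every interval below is a 95% interval of counting error only and leaves out differences between mice, pools and sorts.

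ERG, FLI1 and ETS1 belong to the ETS family, whose members bind GGAA-containing sites in most endothelial enhancers, and ERG and FLI1 hold vascular and blood-forming genes active. SOX17, SOX18 and SOX7 make up the SOXF group, which is needed for arterial and lymphatic development and in which members can stand in for each other. GATA2 and TAL1 share complexes with LMO2 and LDB1 in ECs and blood progenitors, and KLF2 and KLF4 are switched on by laminar blood flow and keep vessels quiet and resistant to clotting. *Klf2* and *Klf4* are also immediate early genes in many cells, so that the enzymes and warmth used to free cells from tissue can raise them.

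The control library held 9301 cells and 123830489 UMIs and the Dnmt1iECKO library 9522 cells and 141433493 UMIs, with medians of 8904 and 8762 UMIs per cell. In every pair of values below, the control library comes first. TECs were cells with a UMI of *Cdh5* or *Pecam1* and none of *Ptprc*, *Epcam*, *Cspg4* or *Myh11*, and numbered 4837 and 2064, with medians of 9592 and 9762 UMIs. The 2 libraries shared 29 cell barcodes. Before that gate, 17.3% and 57.5% of cells held a UMI of the leukocyte gene *Ptprc*. The targeted gene, *Dnmt1*, stood at 49.0 and 26.7 CPM (counts of a gene per 1000000 UMIs of the summed cells) in TECs, a log2 ratio of Dnmt1iECKO over control of −0.88 (−1.0 to −0.75). Each log2 ratio below is Dnmt1iECKO over control and is followed by its 95% interval. In T cell-like cells outside the gate it stood at 79.4 and 65.3 CPM.

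TECs fell into 17 clusters, which were named from fixed markers with the ending -like because they were rebuilt without the authors' annotation. The clusters were found without the 10 genes among the variable genes. The classes compared are aerocyte-like cells (led by *Ednrb*, 1075 and 350 cells), general capillary-like cells (*Kit* and *Bmp6*, 1036 and 402), *Ubd*-high cells (192 and 117), vein-like cells (*Slc6a2* and *Selp*, 168 and 152), artery-like cells (*Bmx*, 57 and 56) and proliferating cells (*Mki67*, 102 and 54). Vein-like cells made up 3.47% and 7.36% of TECs and aerocyte-like cells 22.2% and 17.0%. A lymphatic-like cluster of 32 and 16 cells is too small to compare. The largest cluster left unnamed, led by *Ifit1*, held 966 and 359 cells.

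The genes lie on 8 mouse chromosomes (GRCm38, GENCODE vM21), and none of the values below tell apart their transcripts, since the assay reads 3' ends. *Sox17* spans 4490931 to 4497354 on chromosome 1, *Sox18* spans 181669836 to 181671640 on chromosome 2 and *Sox7* spans 63943673 to 63950732 on chromosome 14. *Fli1* (32422204 to 32542861) and *Ets1* (32636221 to 32757820) are neighbors on chromosome 9, on opposite strands. *Erg* spans 95359169 to 95586593 on chromosome 16, *Gata2* spans 88193891 to 88207032 on chromosome 6, and *Tal1* (115056426 to 115071755) and *Klf4* (55527143 to 55532466) are both on chromosome 4. *Klf2* spans 72319033 to 72321656 on chromosome 8. *Fli1*, *Ets1* and *Sox17* each overlap a gene on the other strand, *Gm27201*, *Gm27240* and *Gm37587*.

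The promoters of *Klf2* and *Klf4* are shown because these genes varied most with the immediate early and heat shock genes described below, and because the deleted enzyme acts on CpG sites. The RefSeq promoter table of GRCm38.p6 held 5 of the 10 genes (*Erg*, *Gata2*, *Tal1*, *Klf2* and *Klf4*). Capitals mark, on either strand, the KLF/SP box GGGCGGGG and the MEF2 consensus, the element through which flow is known to act on *Klf2*. The *Klf2* stretch is chr8:72318812-72319032 on the plus strand and the *Klf4* stretch chr4:55532476-55532725 on the minus strand, both printed 5' to 3' along the gene.
Klf2: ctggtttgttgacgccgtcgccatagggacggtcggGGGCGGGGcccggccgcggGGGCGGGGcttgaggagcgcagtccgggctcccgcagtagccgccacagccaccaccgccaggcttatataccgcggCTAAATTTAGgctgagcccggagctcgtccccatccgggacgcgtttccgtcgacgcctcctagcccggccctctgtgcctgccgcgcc
Klf4: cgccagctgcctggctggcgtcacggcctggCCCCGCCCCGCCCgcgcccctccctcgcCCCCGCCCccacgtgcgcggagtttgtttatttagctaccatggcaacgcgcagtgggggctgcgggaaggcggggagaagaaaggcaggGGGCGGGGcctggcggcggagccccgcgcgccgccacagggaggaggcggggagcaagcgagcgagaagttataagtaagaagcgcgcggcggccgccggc
The printed stretches hold 28 CpG sites in 221 bases for *Klf2* and 32 in 250 bases for *Klf4*. Over windows of 250 bases, 93.2% and 95.4% of 32851 promoters held fewer CpG sites than these, and the median promoter held 6. The *Klf2* window has 2 GGGCGGGG boxes and a MEF2 match that begins 118 bases before the end of the window. That window ends at 72319061, past the gene start given above, and the printed stretch stops before that gene start. The *Klf4* window has 4 such boxes, of which 2 overlap, and no MEF2 match. GGGCGGGG is present in 16.1% of all promoters of this length and the MEF2 consensus in 2.92%. No DNA methylation was measured in these libraries.

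Across all TECs the 10 genes stood at similar levels in both libraries. *Ets1*, *Klf2* and *Klf4* were higher in the Dnmt1iECKO library and the other 7 lower, with log2 ratios between −0.14 and 0.06. Among the 13012 genes that met this minimum, 47.8% had a higher CPM in the Dnmt1iECKO library. None of the 10 reached a log2 ratio of 0.5 in either direction, whereas 12.0% of all genes did (9.07% higher and 2.97% lower). The median log2 ratio was −0.09 over the 10 genes and −0.01 over all genes. These directions depend on the gate: with only *Ptprc* excluded, so that cells with UMIs of *Epcam*, *Cspg4* or *Myh11* stayed in, 0 of the 10 were higher and the median was −0.23, with *Ets1* at −0.08, *Klf2* at −0.06 and *Klf4* at −0.07. With the named endothelial classes alone, weighted to the class composition of the control library, 7 of the 10 were higher. That setting leaves out 8 of the 17 clusters, among them the *Ifit1*-led one. The effect of leaving them out was not separated from that of the weighting.

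Among the ETS factors, *Erg*, the most EC-restricted of the family, was at 289 (284 to 293) CPM in control and 283 (276 to 289) in Dnmt1iECKO TECs, a log2 ratio of −0.03 (−0.07 to 0.01), with an interval that spans 0. *Fli1*, its closest relative, was at 319 and 303 CPM (log2 ratio −0.08, −0.11 to −0.04). *Ets1*, which lymphocytes also use, was at 460.3 and 481 CPM (0.06, 0.03 to 0.09). Of the 3, only *Ets1* was higher in the Dnmt1iECKO library.

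The SOXF genes were all lower in the Dnmt1iECKO library by a similar amount. *Sox17*, the arterial member, was at 169 and 158 CPM (log2 ratio −0.10, −0.15 to −0.04), *Sox18*, which also acts in lymphatic development, at 258 and 239 CPM (−0.11, −0.15 to −0.07) and *Sox7* at 172 and 159 CPM (−0.11, −0.16 to −0.06). *Gata2* had the lowest ratio of the 10, at 184 and 167 CPM (−0.14, −0.19 to −0.09). Its partner *Tal1*, the basic helix-loop-helix factor of the same complexes, was the gene with the fewest UMIs, at 59.4 and 55.5 CPM (−0.10, −0.19 to −0.01). *Klf2* stood at 888 and 926 CPM (0.06, 0.04 to 0.08) and *Klf4* at 793 and 827 CPM (0.06, 0.04 to 0.08). With the immediate early and heat shock share described below set to its distribution in the control library, both ratios turned sign, to −0.05 for *Klf2* and −0.04 for *Klf4*. *Cdh5* and *Pecam1*, which were used to choose the cells, were at 1326 and 1239.8 CPM and at 1322 and 1218 CPM.

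Most single TECs held at least 1 UMI of most of these genes. With every cell thinned to 2000 UMIs, at least 1 ETS gene was seen in 85.4% and 84.7% of TECs, at least 1 SOXF gene in 64.5% and 63.9% and at least 1 of *Klf2* and *Klf4* in 80.6% and 76.2%. Thinning left out 355 and 171 TECs with fewer UMIs. The same shares without thinning were 96.3% and 95.8%, 88.0% and 86.0%, and 92.1% and 89.3%.

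Free RNA in the droplets was gauged in alveolar type 2-like cells, epithelial cells that should lack the ETS and SOXF endothelial factors (129 and 61 cells, medians of 29104 and 34300 UMIs). After thinning, 1.59% and 1.64% of them held a SOXF UMI and 11.1% and 3.28% an ETS UMI, far below the TECs. *Erg* stood there at 14.0 and 9.42 CPM and *Sox17* at 9.59 and 4.49 CPM. *Klf2* and *Klf4* were not restricted in this way: 34.9% and 49.2% of thinned alveolar type 2-like cells held 1 of them, and *Klf2* stood at 184 and 266 CPM.

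Between endothelial classes the genes spread more widely than the ratios between libraries over all TECs, which lay between −0.14 and 0.06. Within single classes, however, the ratios between libraries ran from −0.71 to 0.94. From the lowest to the highest of the 6 classes the log2 difference ran from 0.69 for *Tal1* to 2.42 for *Sox17* in the control library, and from 0.88 for *Erg* to 2.41 for *Klf2* in the Dnmt1iECKO library. In 8 of the 10 genes the same class was highest in both libraries. The exceptions were *Sox7*, highest in artery-like and in vein-like cells, and *Klf4*, highest in aerocyte-like and in artery-like cells. The same count was not made over all genes, so it cannot be called particular to these factors.

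**Figure D1:**
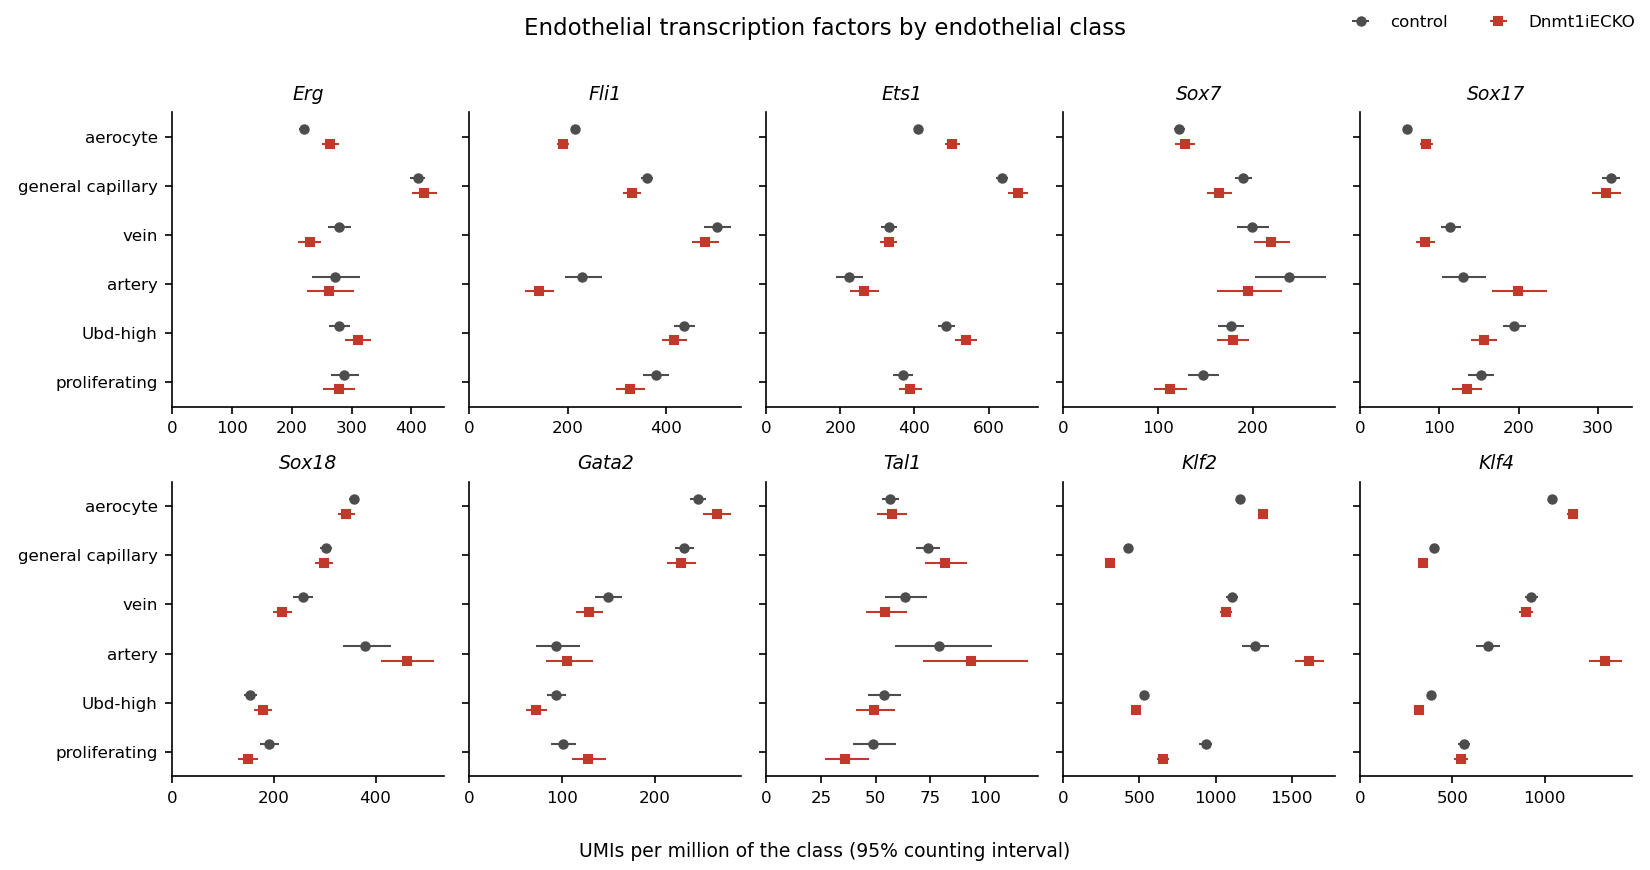
Level of each of the 10 transcription factors in 6 endothelial classes, in CPM (horizontal axis, from 0), for the control and the Dnmt1iECKO library; bars are exact 95% Poisson intervals of the summed UMIs. *Erg*, *Ets1* and *Sox17* peak in the general capillary-like class, where *Klf2* is at its lowest with 422 and 305 CPM.

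*Erg* was highest in general capillary-like cells, at 410.3 (398 to 423) and 421 (400.2 to 443) CPM, and its other classes lay in a narrow band. In the control library aerocyte-like cells were lowest, at 219.8 CPM, and proliferating, *Ubd*-high, vein-like and artery-like cells between 272 and 288 CPM did not differ step by step beyond counting error. In the Dnmt1iECKO library vein-like cells were lowest, at 229.6 CPM, and none of the 4 neighboring steps below the general capillary-like class exceeded counting error.

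*Fli1* had another order, with vein-like cells at the top (504 and 479.8 CPM) and *Ubd*-high cells next (437 and 417 CPM). General capillary-like cells, at 362 and 330.4 CPM, and proliferating cells, at 379 and 326 CPM, came between and did not differ from each other beyond counting error in either library. Aerocyte-like cells were low in both (215 and 189.9 CPM), and artery-like cells were at 230.2 and 141 CPM, the lowest class of the Dnmt1iECKO library. The vein-like level was above the lowest class by 1.23 and 1.77 on the log2 scale.

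*Ets1* had the same order in both libraries, and every step of it exceeded counting error. General capillary-like cells were highest at 636 and 680.2 CPM, followed by *Ubd*-high cells at 486 and 539, aerocyte-like cells at 409 and 502, proliferating cells at 368 and 388, vein-like cells at 332 and 331 and artery-like cells at 223 and 262 CPM. Thus *Erg* and *Ets1* shared their highest class and *Fli1* had a different one.

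The 3 SOXF genes each had a pattern of their own. *Sox17* was highest in general capillary-like cells, at 317 and 311 CPM, and in the control library lowest in aerocyte-like cells, at 59.3 and 83.2 CPM, a difference of 2.42 (95% interval 2.3 to 2.53) on the log2 scale that was the widest of the control library. In artery-like cells *Sox17* stood at 129 and 199 CPM, which put them in the fourth place of the control and the second place of the Dnmt1iECKO library.

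*Sox18* had another order than *Sox17*. Artery-like cells had 380.2 and 461 CPM and aerocyte-like cells 357 and 342 CPM, a step that exceeded counting error in the Dnmt1iECKO library and not in the control library. General capillary-like cells (303 and 298 CPM) and vein-like cells (256 and 217 CPM) followed, and *Ubd*-high cells (153 and 178 CPM) and proliferating cells (191 and 149 CPM) were the low classes.

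*Sox7* varied least of the SOXF genes. In the control library artery-like (238 CPM), vein-like (199), general capillary-like (189.9) and *Ubd*-high cells (176) did not differ from neighbor to neighbor beyond counting error, and aerocyte-like cells were lowest at 122 CPM. In the Dnmt1iECKO library vein-like cells had 219, artery-like cells 194 and proliferating cells, the lowest class, 112 CPM.

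*Gata2* separated the capillary-type classes from the rest. Aerocyte-like cells had 246 and 266 CPM and general capillary-like cells 231 and 228 CPM, both steps above the next class exceeding counting error. Vein-like cells followed at 149.6 and 129 CPM, and proliferating (101 and 128 CPM), artery-like (93.6 and 105 CPM) and *Ubd*-high cells (93.7 and 71.7 CPM) were lowest. *Tal1* did not follow its partner: artery-like cells were at the top, with 78.7 and 93.4 CPM, and proliferating cells at the bottom, with 48.8 and 35.8 CPM. No step between neighboring classes of *Tal1* exceeded counting error in the control library, and in the Dnmt1iECKO library 1 did, from general capillary-like cells (81.8 CPM) to aerocyte-like cells (57.3 CPM).

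*Klf2* and *Klf4* moved together over the classes and apart from *Erg* and *Ets1*. *Klf2* was highest in artery-like cells (1259 and 1614 CPM), then in aerocyte-like (1159 and 1312 CPM) and vein-like cells (1109 and 1068 CPM), and lowest in *Ubd*-high (532 and 480.4 CPM) and general capillary-like cells (422 and 305 CPM). All steps of this order exceeded counting error in both libraries. *Klf4* was high in the same 3 classes, at 1039 and 1152 CPM in aerocyte-like, 927 and 899 CPM in vein-like and 691 and 1329 CPM in artery-like cells, and low in general capillary-like (401 and 341 CPM) and *Ubd*-high cells (384 and 318 CPM), which did not differ from each other beyond counting error.

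*Klf2* and *Klf4* were highest in the 3 classes with most UMIs of immediate early and heat shock genes, which tissue dissociation can raise. *Klf4* did not follow those genes in *Ubd*-high cells. A list of 15 immediate early and heat shock genes (*Fos*, *Jun*, *Egr1*, *Hspa1a* and others, without *Klf2* and *Klf4*) summed to 2663 and 2589 CPM in general capillary-like cells, against 12847 and 14910 in aerocyte-like, 18110.5 and 19517 in vein-like and 16874 and 22989 in artery-like cells. Between these, proliferating cells had 10374 and 9853 CPM and *Ubd*-high cells 9670.0 and 9616, although the *Klf4* level of *Ubd*-high cells was as low as that of general capillary-like cells. The *Ifit1*-led cluster had the highest list level, 21800.3 and 24694 CPM, with *Klf2* at 1181 and 1359 CPM and *Klf4* at 1088 and 1187 CPM, while its *Sox17* level of 245 and 248 CPM lay between that of the general capillary-like class and those of the other 5 classes in both libraries. When classes were set by marker pairs instead of clusters, cells with UMIs of *Kit* and *Bmp6* (1906 and 741) had 814 and 857 CPM of *Klf2*. The low *Klf2* of the general capillary-like class therefore holds for that cluster definition, which leaves the *Ifit1*-led cells out. The part of dissociation in these class levels was not tested.

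To set the list beside the 10 factors cell by cell, TECs of both libraries together were split into 3 equal parts by the share of their UMIs from the 15 genes. The part of dissociation in this share was not tested. This share is continuous and its parts are ranges, not cell types: 217 of 6901 TECs lay within 10% of the lower cut and 431 within 10% of the upper. The lowest part held 1628 and 672 cells, the middle part 1649 and 651 and the highest part 1560 and 741, which is 32.3% and 35.9% of TECs.

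*Klf2* stood at 326, 607 and 1481 CPM from the lowest to the highest part in the control library and at 209, 509 and 1564 CPM in the Dnmt1iECKO library. *Klf4* stood at 332, 606 and 1241 CPM and at 257, 500 and 1330.2 CPM. The log2 difference between the highest and the lowest part was 2.18 and 2.90 for *Klf2* and 1.90 and 2.37 for *Klf4*. In both libraries these differences exceeded those between the highest and the lowest class.

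**Figure D2:**
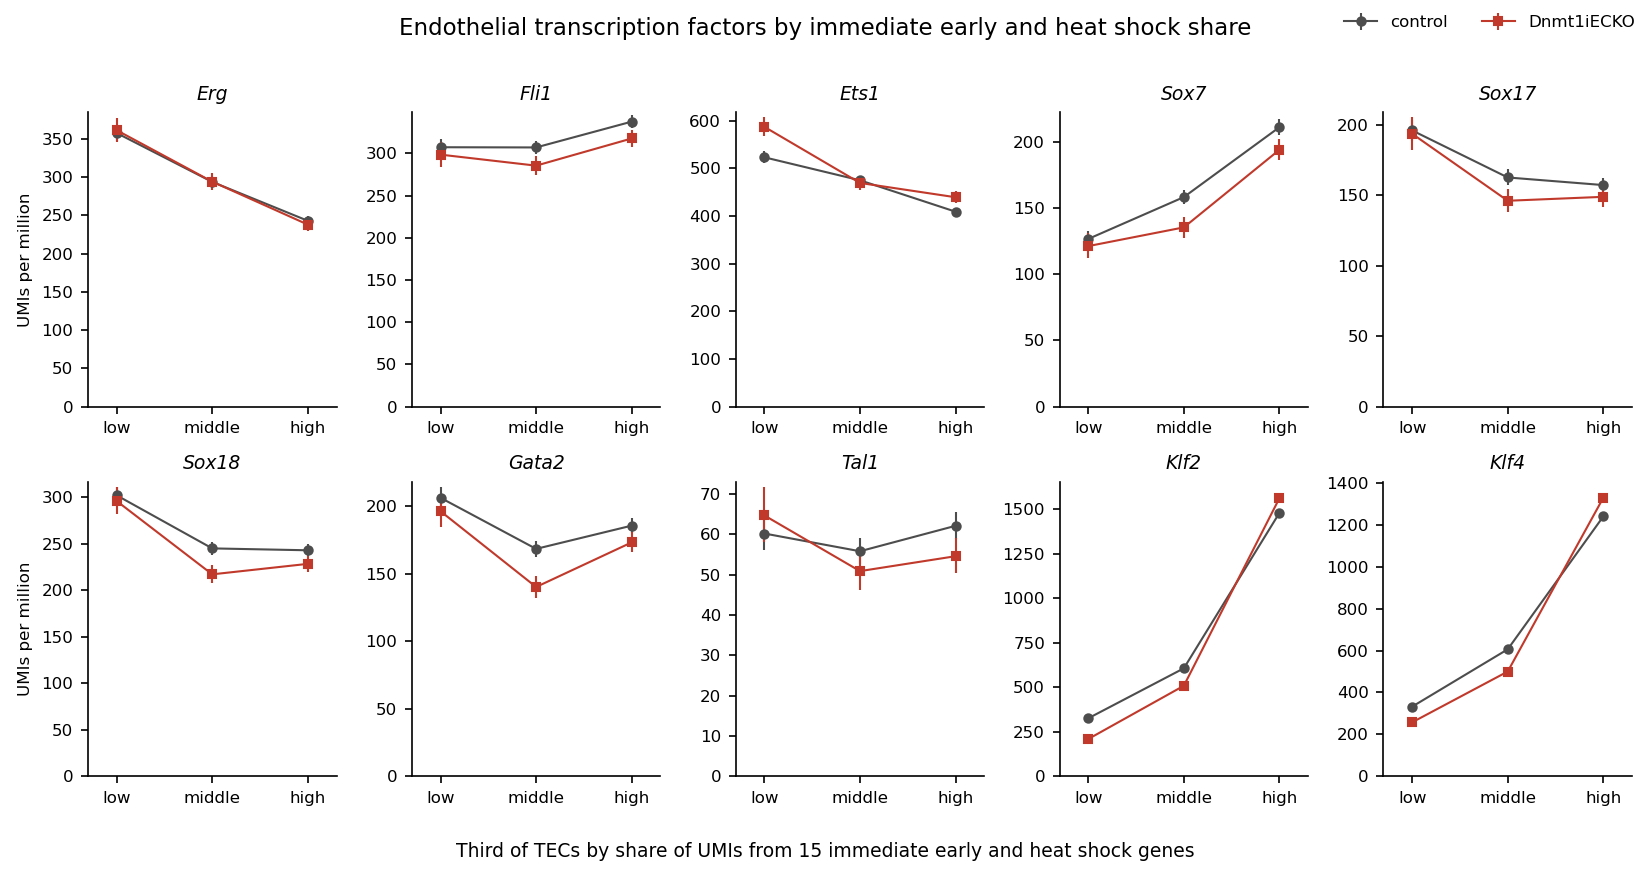
Level of each factor in CPM (vertical axis) in the TECs with the lowest, middle and highest share of UMIs from 15 immediate early and heat shock genes, for the control and the Dnmt1iECKO library, with exact 95% Poisson intervals. *Klf2* and *Klf4* climb steeply with the share, *Sox7* climbs less, and *Erg* and *Ets1* go down, with *Erg* at 358 and 243 CPM in the lowest and highest part of the control library. The parts differ in their make-up of endothelial classes.

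Of the other 8 genes, *Sox7* was the one that was clearly higher in the highest part in both libraries, by 0.74 and 0.68 on the log2 scale, and *Fli1* was higher by 0.14 and 0.09. The other way went *Erg*, with log2 differences of −0.56 and −0.60, *Ets1* with −0.36 and −0.42, *Sox17* with −0.32 and −0.38, and *Sox18* with −0.31 and −0.37. *Gata2* was also lower (−0.15 and −0.18). *Tal1* differed in sign between libraries (0.05 and −0.25), with a 95% interval of −0.08 to 0.17 in the control library that spans 0. The parts differed in class make-up: 71.5% and 71.4% of general capillary-like cells, the highest class of *Erg*, *Ets1* and *Sox17*, lay in the lowest part. In control aerocyte-like cells *Ets1* went from 405.5 to 400 CPM, *Sox17* from 57.9 to 59.6 and *Erg* from 257 to 190. In those of the Dnmt1iECKO library they went from 518 to 491, 87.1 to 82.7 and 290 to 235 CPM. The part of class make-up in these differences was not tested. These shares are of the total of a cell, so that more UMIs of the list leave fewer for other genes; the list itself took 25552 and 27055 CPM in the highest part.

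The difference between libraries in *Klf2* and *Klf4* turned its sign with the share. In the lowest part *Klf2* was lower in the Dnmt1iECKO library, 326 against 209 CPM (log2 ratio −0.64, −0.73 to −0.54), and in the middle part also (−0.25, −0.30 to −0.20), while in the highest part it was higher (0.08, 0.05 to 0.10). *Klf4* gave −0.37 (−0.46 to −0.28) in the lowest, −0.28 (−0.33 to −0.23) in the middle and 0.10 (0.07 to 0.13) in the highest part. The small positive ratio over all TECs thus joins negative ratios in the 2 parts with fewer immediate early and heat shock UMIs with a positive one in the part with most, which also held the larger share of Dnmt1iECKO TECs. *Ets1* was higher in the Dnmt1iECKO library in the lowest part (0.17, 0.11 to 0.23) and in the highest (0.10, 0.05 to 0.15) and not in the middle (−0.02, −0.07 to 0.04), and *Erg* differed by less than counting error in all 3 parts (0.01, 0.0015 and −0.03).

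Aerocyte-like, vein-like and *Ubd*-high cells had at least 20 cells of each library in both the lowest and the highest part. Of these classes, the turn exceeded counting error in aerocyte-like cells only. Artery-like cells had fewer than 20 in the lowest part and general capillary-like cells fewer than 20 in the highest, so a turn could not be looked for in either. In the lowest part *Klf2* was at 328 and 212 CPM in general capillary-like cells (log2 ratio −0.63, −0.77 to −0.49), at 374 and 242 CPM in aerocyte-like cells (−0.63, −0.81 to −0.45) and at 487 and 374 CPM in vein-like cells (−0.38, −0.72 to −0.05). *Ubd*-high cells of that part (38 and 30) had 159 and 74.5 CPM (−1.10, −1.67 to −0.55). In the highest part aerocyte-like cells had 1967 and 2216 CPM (0.17, 0.12 to 0.22) while the intervals of vein-like (−0.02, −0.11 to 0.06), *Ubd*-high (0.04, −0.12 to 0.20) and artery-like cells (0.06, −0.08 to 0.21) spanned 0. *Klf4* of the highest part was higher in the Dnmt1iECKO library in aerocyte-like (0.20, 0.14 to 0.25) and artery-like cells (0.73, 0.55 to 0.92), and its intervals spanned 0 in vein-like (0.02, −0.08 to 0.11) and *Ubd*-high cells (−0.15, −0.35 to 0.05). With the lowest part alone, vein-like cells had the highest *Klf2* of the classes with at least 20 cells in each library, in both libraries, and with the highest part alone aerocyte-like cells did.

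**Figure D3:**
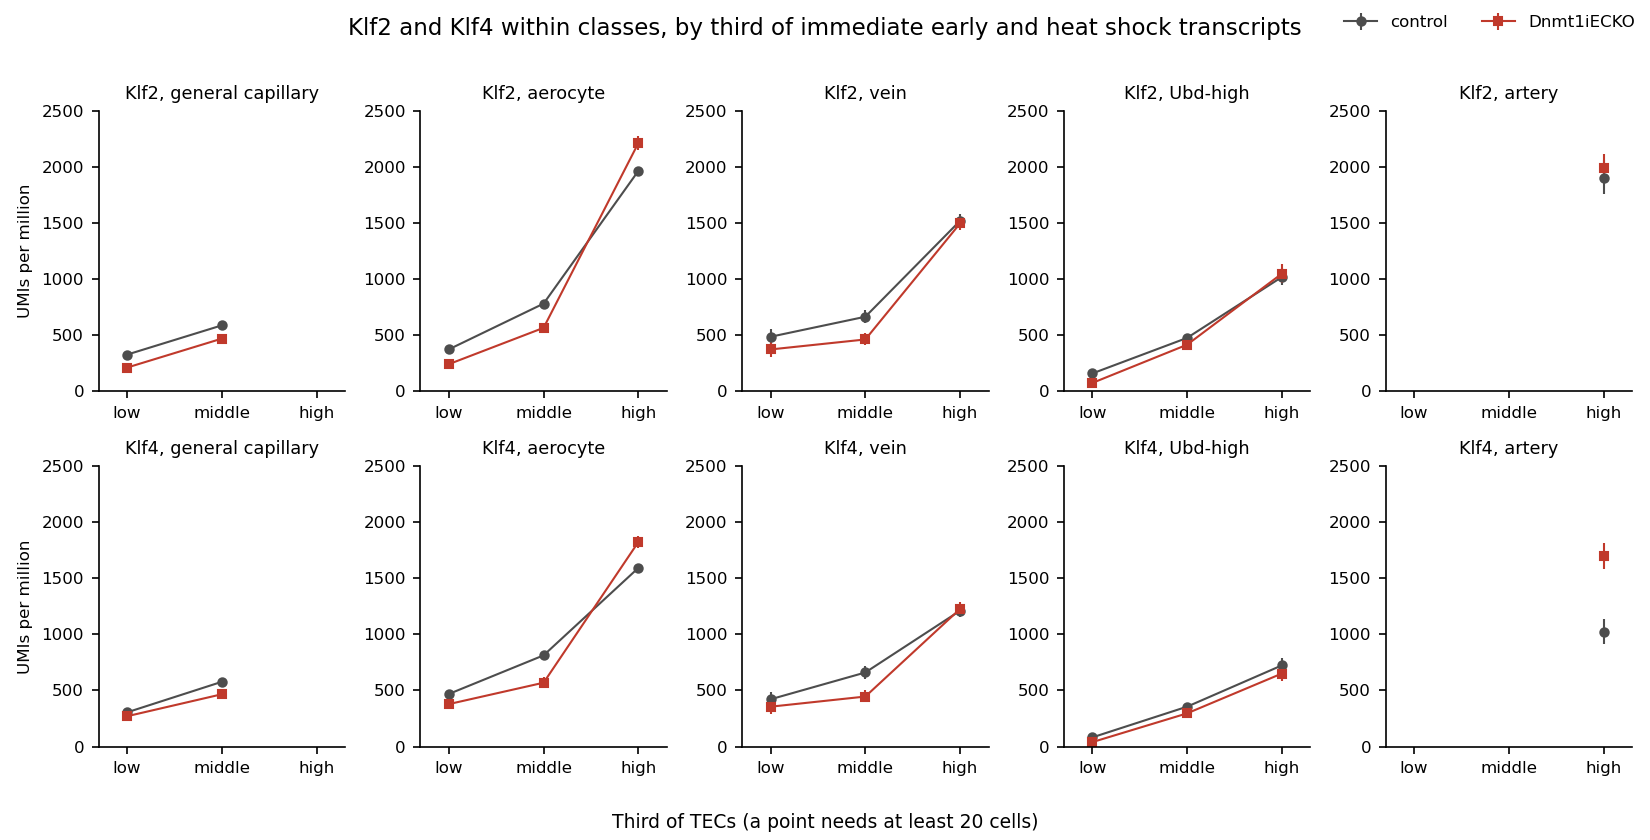
*Klf2* and *Klf4* in CPM (vertical axis) in 5 endothelial classes within the lowest, middle and highest part of the immediate early and heat shock share, control and Dnmt1iECKO library, with exact 95% Poisson intervals, drawn where both libraries have at least 20 cells. Points of the Dnmt1iECKO library lie under those of the control for *Klf2* in the lowest part, as in general capillary-like cells with 328 and 212 CPM.

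Within classes, without that split, the libraries differed in both directions. Over the 60 ratios of 10 genes in 6 classes, 25 were above 0 and the log2 ratios ran from −0.71 to 0.94, both in artery-like cells. Of these ratios, 4 reached 0.5 in size. Genes outside the 10 also reached 0.5 in every class, so this count is not called few. The shares of all genes above 0 and past 0.5 stand beside the counts of each class below. For 6 of the 10 genes the ratio had opposite signs in 2 classes with neither interval spanning 0, beside 8.16% of all genes with at least 100 UMIs and 18.6% of the 3500 genes with at least as many UMIs as *Tal1*. With classes set by marker pairs, which hold fewer cells of the small classes, 17 of the 60 ratios had the other sign, so the values by class below hold for the clusters. By marker pairs there were 22 and 20 *Ubd*-high cells and 19 and 11 proliferating cells, the latter under the minimum of 20 per library. The marker-pair value, an alternative chosen after seeing the data, is given where it turns the sign of a ratio named here or brings it below 0.5.

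**Figure D4:**
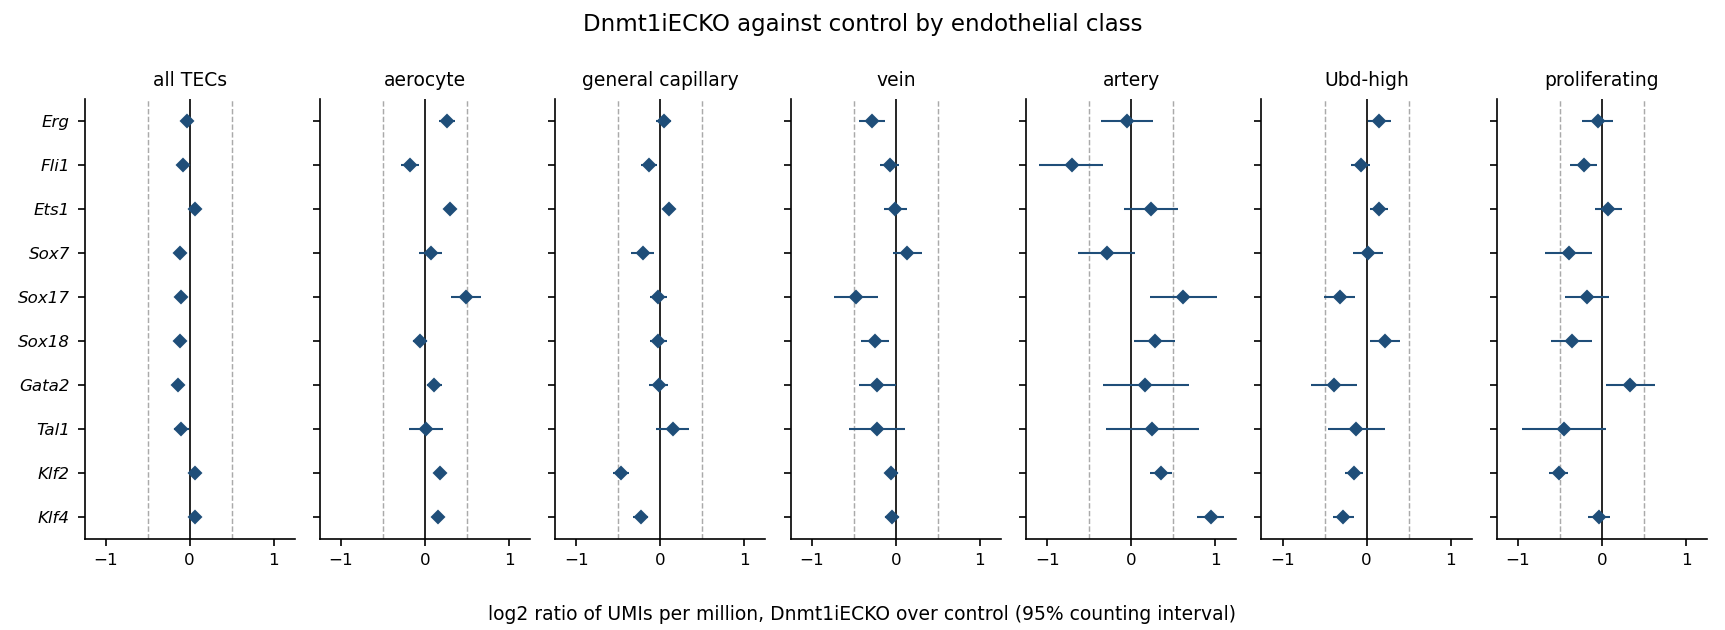
Log2 ratio of the Dnmt1iECKO over the control library (horizontal axis) for each factor in all TECs and in 6 endothelial classes, with 95% intervals conditional on the summed UMIs of both libraries and dashed lines at 0.5 in either direction. Ratios over all TECs lie between −0.14 and 0.06, and the widest ones are those of artery-like cells.

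In aerocyte-like cells 8 of the 10 genes were higher in the Dnmt1iECKO library, beside 47.8% of all genes, and none reached 0.5, beside 6.06%. *Erg* was at 219.8 and 264 CPM (log2 ratio 0.27, 0.17 to 0.36), *Ets1* at 409 and 502 CPM (0.29, 0.22 to 0.36) and *Sox17*, the low SOXF gene of this class, at 59.3 and 83.2 CPM (0.49, 0.31 to 0.66). *Klf2* (0.18, 0.14 to 0.22) and *Klf4* (0.15, 0.10 to 0.19) were higher as well, beside an immediate early and heat shock level of 12847 and 14910 CPM, whose part in the result was not tested. *Fli1* went the other way (−0.18, −0.29 to −0.07).

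In general capillary-like cells 3 of the 10 were higher, beside 49.3% of all genes, and none reached 0.5, beside 5.8%. Their highest factors *Erg* (0.04, −0.05 to 0.12) and *Sox17* (−0.03, −0.13 to 0.07) differed by less than counting error, and *Ets1* was higher (0.10, 0.03 to 0.17). *Klf2*, at 422 and 305 CPM, had the lowest ratio of this class (−0.47, −0.57 to −0.37), and *Klf4* was also lower (−0.23, −0.33 to −0.14), with the immediate early and heat shock list at 2663 and 2589 CPM. By marker pairs *Klf2* was higher (0.07, 0.03 to 0.11) and the interval of *Klf4* spanned 0 (−0.0015, −0.04 to 0.04).

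In vein-like cells 1 of the 10, *Sox7*, was higher, beside 44.0% of all genes, and none reached 0.5, beside 9.41%. *Sox17* was at 114 and 82.0 CPM (log2 ratio −0.47, −0.74 to −0.21) and *Erg* at 279 and 229.6 CPM (−0.28, −0.44 to −0.12). By marker pairs (51 and 56 cells) *Sox17* turned sign, at 81.6 and 104 CPM (0.34, −0.13 to 0.82), *Sox7* was at −0.03 (−0.33 to 0.27) and *Klf4* at 0.12 (−0.03 to 0.26), all with intervals that span 0. In all, 5 of the 10 were higher there, against 1 in the cluster. *Fli1*, highest in this class, gave −0.07 (−0.19 to 0.04), and *Klf2* and *Klf4* gave −0.05 (−0.13 to 0.02) and −0.04 (−0.13 to 0.04).

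In artery-like cells, which rest on 57 and 56 cells, 7 of the 10 were higher, beside 45.6% of 2650 genes, and 3 reached 0.5, beside 16.0%. *Klf4* was at 691 and 1329 CPM (log2 ratio 0.94, 0.78 to 1.11) and *Sox17*, the arterial factor, at 129 and 199 CPM (0.62, 0.22 to 1.03). These are 2 genes higher by that size, beside 7.09% of all genes. *Fli1* was lower at 230.2 and 141 CPM (−0.71, −1.09 to −0.33), 1 gene lower by that size, beside 8.91%. By marker pairs (29 and 28 cells) *Sox17* was at 166 and 162 CPM (−0.03, −0.57 to 0.50), while *Klf4* gave 0.66 (0.45 to 0.86) and *Fli1* −0.49 (−0.91 to −0.07). The immediate early and heat shock list stood at 16874 and 22989 CPM in these cells, and *Klf4* was at 1021 and 1698 CPM in those of the highest part of that share (25 and 36 cells). The part of dissociation in these ratios was not tested.

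In *Ubd*-high cells, marked by interferon-inducible genes, 4 of the 10 were higher, beside 49.1% of all genes, and none reached 0.5, beside 7.65%. *Gata2* was at 93.7 and 71.7 CPM (log2 ratio −0.39, −0.66 to −0.12), *Sox17* at 194 and 156 CPM (−0.32, −0.50 to −0.14) and *Klf4* at 384 and 318 CPM (−0.27, −0.40 to −0.15; by marker pairs 0.07, −0.38 to 0.52), while *Sox18* was at 153 and 178 CPM (0.22, 0.04 to 0.40). In proliferating cells 2 of the 10 were higher, beside 49.0%, and 1 reached 0.5, beside 9.53% of all genes in either direction (4.99% higher and 4.54% lower): *Klf2*, at 934 and 654 CPM (−0.51, −0.63 to −0.40), which by marker pairs (19 and 11 cells) gave −0.25 (−0.51 to 0.0028). *Gata2* was higher in this class, at 101 and 128 CPM (0.34, 0.05 to 0.63). Markers of fibroblasts summed to 16.1 and 83.7 CPM in proliferating cells, and their part in these ratios was not tested.

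Over all TECs, markers of other cells also differed between libraries: 5 of 5 fibroblast markers were present and summed to 305 and 669.8 CPM, 6 of 6 macrophage markers to 8.25 and 18.9, and 5 of 5 alveolar type 2 markers to 97.8 and 22.1 CPM. Of 7 pericyte and smooth muscle markers 5 were present, at 21.4 and 42.5 CPM, and *Cspg4* and *Myh11* were at 0 by the gate. Without the clusters whose *Cdh5* CPM was under 50% of that of all TECs, the median log2 ratio of the 10 factors was −0.04 and 4 were higher. A fibroblast-like cluster inside the gate (94 and 90 cells) had *Erg* at 66.5 and 53.0 CPM and *Sox17* at 41.1 and 27.4 CPM.

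In immune and alveolar type 2-like cells outside the gate the genes fell into endothelial and shared factors. *Erg* was at 4.02 and 2.16 CPM in T cell-like, 7.28 and 2.07 in macrophage-like and 14.0 and 9.42 in alveolar type 2-like cells, and *Sox17*, *Sox18*, *Sox7*, *Gata2* and *Tal1* were at or below 21.9 CPM in T cell-, NK-, B cell-, macrophage- and neutrophil-like cells of both libraries. *Ets1* was higher in lymphocytes than in TECs, at 1223 and 1310.2 CPM in T cell-like, 1115 and 1263 in NK-like and 984 and 851 in B cell-like cells. *Fli1* was at 484 and 484, 487 and 450.4 and 520.0 and 455 CPM in the same 3 kinds of cell, above the TEC levels. Other clusters outside the gate did hold the endothelial factors, together with UMIs of *Cdh5*. *Erg* was at 219.7 and 172 CPM in pericyte and smooth muscle-like cells (*Cdh5* at 839 and 773 CPM), at 133 and 118 CPM in alveolar type 1-like cells (*Cdh5* at 539 and 423) and at 336 and 445 CPM in platelet-like cells (*Cdh5* at 1484 and 1468). *Sox17* was at 112 and 91.3, 76.4 and 53.2 and 169 and 215 CPM and *Gata2* at 138 and 129, 78.7 and 41.1 and 221 and 252 CPM in the same 3 clusters.

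**Figure D5:**
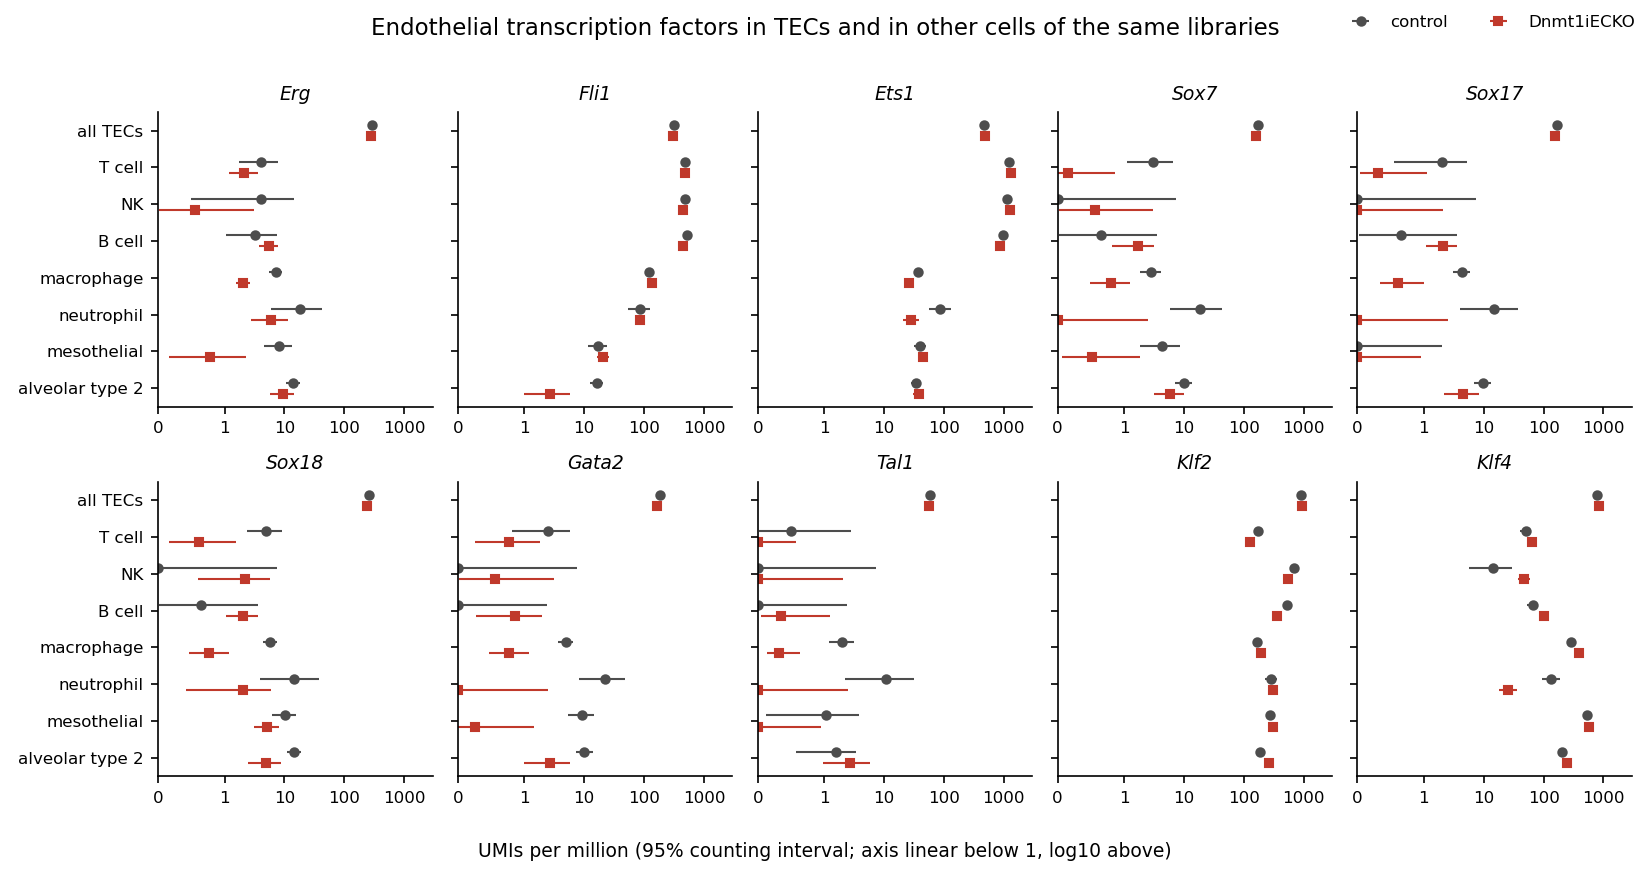
Level of each factor in CPM (horizontal axis, linear below 1 and log10 above) in TECs and in 7 kinds of cell outside the gate, control and Dnmt1iECKO library, with exact 95% Poisson intervals. *Erg*, the SOXF genes, *Gata2* and *Tal1* stand high in TECs alone among the kinds shown, *Ets1* and *Fli1* stand higher in lymphocytes, as *Ets1* with 1223 and 1310.2 CPM in T cell-like cells, and *Klf2* and *Klf4* are spread over several kinds.

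*Klf2* was present in NK-like cells (697 and 556 CPM) and B cell-like cells (525 and 363 CPM), where it governs the recirculation of lymphocytes, and was lower in T cell-like cells (173 and 129.6 CPM). *Klf4*, also a factor of myeloid and epithelial cells, was at 290.5 and 393 CPM in macrophage-like and 532 and 570.2 CPM in mesothelial-like cells and at 50.3 and 64.7 CPM in T cell-like cells. In NK-, B cell- and T cell-like cells alike, *Klf2* was lower in the Dnmt1iECKO library, with log2 ratios of −0.33 (−0.50 to −0.15), −0.53 (−0.65 to −0.42) and −0.42 (−0.60 to −0.24).

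Genes that work with the 10 factors were read from lists, whose counts over all TECs stand beside 47.8% of all genes higher in the Dnmt1iECKO library. *Cdh5* (−0.10, −0.12 to −0.08) and *Pecam1* (−0.12, −0.14 to −0.10), used to choose the cells, were lower and are themselves in the first list below. With the lists also moved the fibroblast markers given above and the share of aerocyte-like cells (22.2% and 17.0% of TECs). The part of all these in the lists was not tested. Of 13 endothelial genes known to depend on ETS factors, 2 were higher in the Dnmt1iECKO library and 11 lower, *Cdh5* and *Pecam1* among the lower. Their log2 ratios ran from −0.32 to 0.04 with a median of −0.14, beside −0.01 for all genes. None reached 0.5. *Kdr*, the main VEGF receptor, was at 836 and 697 CPM, *Flt1*, the decoy VEGF receptor, at 1090.2 and 970.3, *Cldn5*, a tight junction protein, at 1223 and 1026 and *Icam2*, which had the lowest ratio (−0.32, −0.35 to −0.30), at 794 and 634 CPM. *Robo4* (0.04, −0.04 to 0.12) and *Emcn* (0.02, −0.01 to 0.06) had intervals that span 0.

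Of 6 genes known to be raised by KLF2 and KLF4 under flow, 4 were higher and 2 lower, with a median log2 ratio of 0.23. *Thbd*, the anticoagulant thrombomodulin, was at 513 and 389.9 CPM (−0.39, −0.43 to −0.36) and *Slco2a1*, a prostaglandin carrier, at 740.2 and 757 CPM (0.03, 0.01 to 0.06). *Nos3*, the endothelial nitric oxide synthase, was at 38.1 and 51.5 CPM (0.43, 0.33 to 0.53). *Ccn3* and *Cyp1b1* reached 0.5 from low levels, at 1.88 and 5.79 and 1.84 and 5.56 CPM. The 2 with the most UMIs, *Slco2a1* and *Thbd*, thus did not go the same way.

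Of 8 partners of GATA2 and TAL1, 7 had enough UMIs, of which 2 were higher and 5 lower (median −0.10). *Lmo2*, the bridging protein, was at 163 and 146 CPM (−0.16, −0.22 to −0.11), *Cbfa2t3*, a corepressor, at 268 and 222 (−0.27, −0.32 to −0.23) and *Tcf4*, an E protein, at 1081 and 1197 CPM (0.15, 0.13 to 0.17). *Lmo2* and *Cbfa2t3* were thus lower beside *Gata2* and *Tal1*, and *Tcf4* was higher.

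Family members outside the 10 were split. Of 12 other ETS genes with enough UMIs, 8 were higher and none reached 0.5, with *Elf1* at 352 and 353 and *Etv6* at 286 and 289 CPM. Of 9 other KLF genes, 4 were higher, with *Klf6* at 331 and 362 and *Klf7* at 616 and 535 CPM, and *Klf16* (−0.53, −0.79 to −0.27) was lower past 0.5. Of 8 other SOX and GATA genes, 7 were higher and *Sox5*, *Sox6* and *Gata6* reached 0.5, at 53.3 and 82.3, 4.24 and 7.20 and 38.8 and 61.2 CPM, beside fibroblast and smooth muscle markers that were also higher and whose part was not tested. *Sox13* was lower (−0.24, −0.32 to −0.17) and *Sox4* level (0.00046, −0.05 to 0.05). Of 15 other endothelial factors, 6 were higher, with *Epas1*, the hypoxia factor HIF2A, at 1729.6 and 1723 and *Foxp1* at 1060.3 and 1058 CPM, and *Foxc1* and *Hey2* reached 0.5 from levels of 2.94 and 6.07 and 1.53 and 3.19 CPM.

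Of the 15 immediate early and heat shock genes, 11 were higher in the Dnmt1iECKO library, among them *Fos* at 2391 and 3003 CPM (0.33, 0.32 to 0.34) and *Nr4a1* past 0.5 (0.60, 0.53 to 0.68). The 4 lower ones were the heat shock genes *Hspa1a* (−0.56, −0.60 to −0.52), *Hspa1b* (−0.52, −0.57 to −0.48), *Hsph1* (−0.90, −1.0 to −0.80) and *Dnajb1* (−0.09, −0.15 to −0.03). *Jun* was at 2674 and 2733 CPM. The immediate early genes were thus higher beside *Klf2* and *Klf4* and the heat shock genes lower.

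Likeness of pattern was measured as Pearson's r of log2(CPM + 10) over 12 points, 6 classes in each of 2 libraries, among genes with at least 1000 UMIs. The points share libraries and depth, so the values are a description. *Klf2* and *Klf4* had r = 0.927 with each other, *Erg* and *Sox17* 0.880 and *Sox18* and *Tal1* 0.816, whereas *Klf2* had −0.810 with *Ets1* and −0.805 with *Erg*. Over all genes, *Klf2* was most like *Gadd45b* (0.943), *Jun* (0.936) and *Cltb* (0.925), of which *Jun* is on the immediate early and heat shock list. *Klf4* was most like *Zbtb7c* (0.907), *Cr1l* (0.907) and *Sh3bgrl* (0.886). *Sox18* was most like *Ankra2* (0.97), *Ntn4* (0.945) and *Id3* (0.943), and *Gata2* most like *Spice1* (0.967), *Washc4* (0.967) and *Lfng* (0.964). For *Ets1* the closest was *Trp53inp2* (0.979), for *Fli1* *Tbc1d2b* (0.951), for *Sox17* *Sh3glb1* (0.942), for *Erg* *Map4k3* (0.939), for *Tal1* *Strn3* (0.933) and for *Sox7* *Trrap* (0.899).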

How the data were processed

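The values deposited by the authors are raw UMI counts per gene and cell, which Cell Ranger 9.0.1 made on mm10. They are not normalized, and the software had already told cells from empty droplets. Whether intronic reads were counted is not given in the sources used here.

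From these counts, cells with at most 10% mitochondrial UMIs and at least 500 detected genes were kept, and 257 control and 263 Dnmt1iECKO doublets, the highest Scrublet scores at 0.4% per 1000 cells in scanpy 1.11.5, were removed. The methods of the study give a minimum of 9000 detected genes, which 1 TEC of each library met, and another doublet caller. Clusters came from Seurat 5.3.0 in R 4.3.3 (2000 variable genes without the 10 factors, anchor integration, 30 components, resolution 0.5). Naming a cluster took 3 or more markers, each in 10% or more of the cells and at a log2 fold of 1 or more (10 CPM added), with 1 of them among the 10 leading genes.

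UMIs were added up per class and library and divided by the total (CPM). Intervals are exact Poisson intervals for CPM and exact intervals conditional on the sum of both counts for ratios. No test was made, since each condition is 1 library. Thinning drew 2000 UMIs per cell. Calculations used Python 3.11.15, numpy 2.4.6, scipy 1.17.1 and pandas 2.3.3, plots matplotlib 3.10.9, and the interval calculation was tested on simulated data. Genes named from a list were its 2 with the most UMIs, and for likeness the 3 with the highest r. Other list genes were named after their values were seen. The genes and lists were chosen with earlier results of these data known.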

Additional observations from a re-analysis of the deposited data

Results flagged for a closer look

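For 6 of the 10 factors the log2 ratio of Dnmt1iECKO over control had opposite signs in 2 endothelial classes, with neither 95% counting interval spanning 0. The same held for 8.16% of the 13012 genes with at least 100 UMIs and for 18.6% of the 3500 genes with at least as many UMIs as *Tal1*, the factor with fewest. The difference between the classes was not tested, because each condition is 1 library. *Erg* was at 0.27 in aerocyte-like and −0.28 in vein-like cells. *Sox17* was at 0.62 in artery-like and −0.47 in vein-like cells. *Sox18* was at 0.28 in artery-like and −0.36 in proliferating cells. *Gata2* was at 0.34 in proliferating and −0.39 in *Ubd*-high cells. *Klf2* was at 0.36 in artery-like and −0.51 in proliferating cells, and *Klf4* at 0.94 in artery-like and −0.27 in *Ubd*-high cells. With classes set by marker pairs, none of the 6 pairs of classes kept both signs with both intervals off 0: *Sox17* gave −0.03 (−0.57 to 0.50) in artery and 0.34 (−0.13 to 0.82) in vein cells, the reverse of the clusters, *Klf4* of *Ubd*-high cells gave 0.07 (−0.38 to 0.52), and the intervals spanned 0 for *Erg* in vein (−0.15), *Sox18* and *Klf2* in artery (0.04 and 0.12) and *Gata2* in proliferating cells (0.10). Of these pairs, 4 include artery-like cells, which rest on 57 control and 56 Dnmt1iECKO cells. By marker pairs, *Ubd*-high cells number 22 and 20 and proliferating cells 19 and 11, so their intervals are wide.

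Outside the endothelial gate, a cluster with the markers of immature thymocytes held 163 cells of the Dnmt1iECKO library and 0 of the control library. Those outside the gate carried *Ets1* and *Fli1* at 1284 and 343 CPM and no UMI of *Sox17*, *Sox18*, *Gata2* or *Tal1*.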

How the results depend on the processing

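Of 13 other ways to choose or count TECs, several moved the number of the 10 factors that were higher in the Dnmt1iECKO library from 3 and their median log2 ratio from −0.09. With only *Ptprc* at 0, the gate in the rule for these genes, 0 factors were higher and the median was −0.23. With the named endothelial classes alone, at the control library's class composition, 7 were higher (median 0.023). That setting leaves out 8 of the 17 clusters. After thinning to 2000 UMIs 5 were higher (median 0.0083), and at the control distribution of the immediate early and heat shock share 1 was. With the mean of single-cell CPM the median was −0.0050. In the other alternatives 3 or 4 were higher. *Fli1* and *Sox18* kept their negative sign in all 13, *Erg* in 9. The cause of these moves was not tested. Size factors shifted every ratio by −0.03.

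In 4 other class definitions 7 or 8 factors had the same highest class in both libraries, and 7 in each of 2 alternatives chosen after seeing the data, the TECs with the lowest and with the highest immediate early and heat shock share. With classes set by marker pairs, also chosen after seeing the data for the ratios within classes, 5 in place of 1 of the factors were higher in vein and 4 in place of 2 in proliferating cells, and the count of the other 4 classes stayed within 1.5 times. The proliferating cells of that definition number 19 and 11. Leaving out a library would leave no ratio. No paired analysis was possible because each condition is 1 library. The limits are those of 2 pooled libraries: artery-like, proliferating and vein-like classes hold few cells, and sort, digestion and genotype cannot be told apart.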
